A study of Homo sapiens with 6 samples.

Results

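The coactivators of the PGC-1 family and the nuclear genes that build the mitochondrial genome's replication and transcription machinery were examined in RH30 cells, an established human alveolar rhabdomyosarcoma line. The 10 genes were PPARGC1A, PPARGC1B, PPRC1, NRF1, TFAM, TFB1M, TFB2M, ESRRA, POLG and POLRMT. They were chosen by name, with earlier results of these data known, and 9 of the 10 were found among the 22411 genes measured. RH30-IκBα SR cells carried the IκBα super repressor, a degradation-resistant form of IκBα that retains classical NF-κB in the cytoplasm, and the RH30 vector cells carried the empty vector. Both were stable lines made by retroviral infection and grown in DMEM with fetal bovine serum, and whether each was a pool of cells or a single clone is not given in the sources used here. RNA of each line was hybridized to 3 Human Transcriptome Arrays, 6 in all. The arrays were run to ask how classical NF-κB acts on the metabolism of sarcoma cells.

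PGC-1 coactivators do not bind DNA themselves. They dock on transcription factors such as NRF1 and the nuclear receptor ERRα, which switch on nuclear genes for respiration. Among the targets are genes whose products enter mitochondria to copy and transcribe the mitochondrial genome. Muscle depends heavily on this program when it adapts to endurance exercise.

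Values are log2 levels from RMA, which takes off background, brings the arrays to 1 distribution and merges the probes that read the same feature. A difference of 1 in log2 level is a doubling. On each array 764 to 824 features lay above 16, the log2 maximum of the scanner, and what gives rise to these values was not tested. IκBα SR arrays were set against vector arrays with limma, fitted over all genes at once. A gene was called higher or lower at an adjusted p under 0.05 (Benjamini-Hochberg), as were 18.3% of all genes, 9.76% higher and 8.58% lower. Every member was read by 1 feature, and fold changes compare a gene only with itself in the other group. Where a level is placed against the median gene or the median feature, this gives only a rough reading of brightness, since features differ in response. Nothing in the labels says that the 3 arrays of a line came from separate cultures, and the p-values therefore reflect only array-to-array spread, which may be technical.

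Of the 9 measured members, TFB2M was higher and TFAM was lower in IκBα SR cells, and 7 did not pass the test. That is 22.2% of the members called against the 18.3% of all genes, or against 34.2% (18.7% higher and 15.4% lower) of the 11206 genes at or above the level of the median gene, where 8 of the 9 members lie. The groups did not overlap in 2 members, TFB2M and TFAM, and in 29.6% of all genes. The median log2 fold change of the members was 0.05, and that of all genes was 0.00. None of the PGC-1 coactivator genes passed the test.

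**Figure D1:**
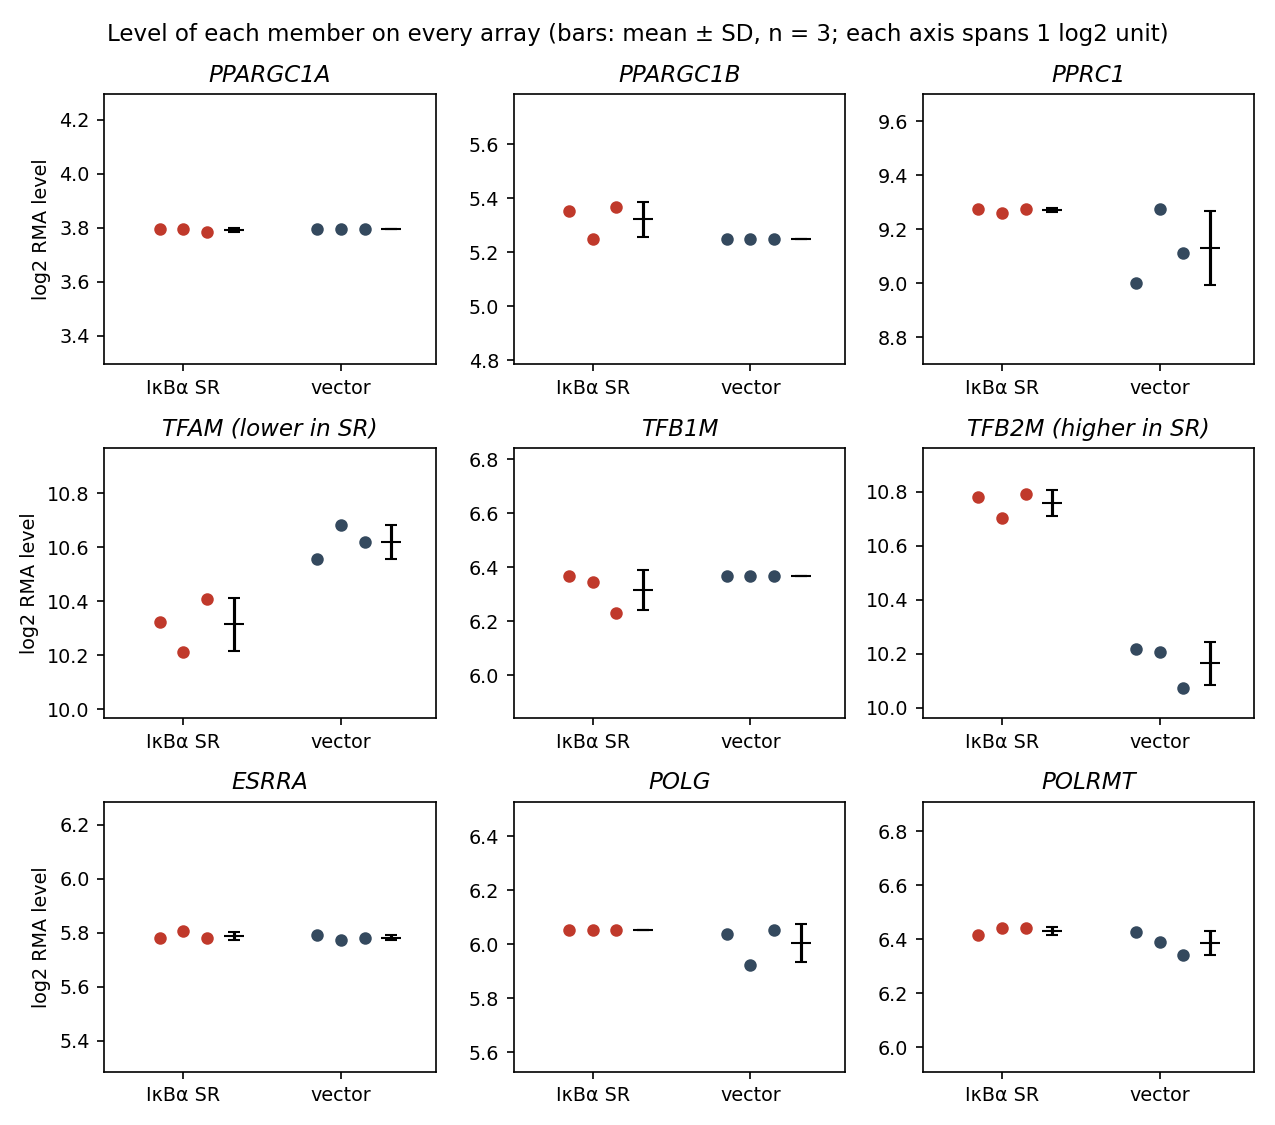
Log2 RMA level (vertical axis) of each member on the 3 IκBα SR arrays (left) and the 3 vector arrays (right), with the mean and SD beside the points; each axis spans 1 log2 unit. TFB2M and TFAM are the members whose groups stand apart, and several other members have points at exactly 1 level.

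PPARGC1A encodes PGC-1α, the founding member, which is induced in muscle by exercise and in brown fat by cold. It was 3.80, 3.80 and 3.79 in the IκBα SR arrays and 3.80, 3.80 and 3.80 in the vector arrays. These levels lie below the median over all features of every array (4.344 to 4.398), where little signal can be told from background. The log2 fold change was -0.0036 (95% interval -0.0185 to 0.0114, adjusted p = 0.75 from limma).

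PPARGC1B encodes PGC-1β, a close relative of PGC-1α. It was 5.35, 5.25 and 5.37 in the IκBα SR arrays and 5.25 in each vector array. IκBα SR replicates 1 and 3 lay above the vector arrays, and IκBα SR replicate 2 had the same value as all of them. Its log2 fold change was 0.07 (standard error 0.04, 95% interval -0.02 to 0.17, adjusted p = 0.30 from limma), which is 1.05-fold with an interval from 0.987-fold to 1.12-fold. Without IκBα SR replicate 2 it was 0.11 and passed the test (adjusted p = 0.0046 from limma). That fit set 5.35 and 5.37 against vector arrays of identical value, after the overlapping array was removed, so its spread was very small. It passed in 1 of the 15 alternatives run for it.

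PPRC1 encodes PRC, the PGC-1-related coactivator, which responds to growth signals. It was 9.274, 9.260 and 9.274 in IκBα SR cells and 9.000, 9.274 and 9.112 in vector cells, so the groups overlapped through vector replicate 2. The log2 fold change was 0.14 (standard error 0.07, 95% interval -0.06 to 0.34, adjusted p = 0.35 from limma). Without vector replicate 2 it was 0.21 (adjusted p = 0.0495 from limma), and without vector replicate 1 it was 0.08 (adjusted p = 0.502 from limma).

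ESRRA encodes ERRα, an orphan nuclear receptor that works with PGC-1 coactivators and is itself one of their targets. It was 5.78, 5.81 and 5.78 in IκBα SR cells and 5.79, 5.77 and 5.78 in vector cells, a log2 fold change of 0.0069 (95% interval -0.0220 to 0.0357, adjusted p = 0.75 from limma). NRF1, nuclear respiratory factor 1, was not measured by a feature of its own. The feature TC07000801.hg.1 is listed under both NRF1 and RNA5SP244, so its values are not assigned to NRF1. It read 7.86, 7.84 and 7.84 in IκBα SR cells and 7.84, 7.84 and 7.77 in vector cells, with a log2 fold change of 0.03 (95% interval -0.04 to 0.10, adjusted p = 0.71 from limma over 70523 features).

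The mitochondrial transcription factors held both calls. TFB2M encodes the factor that opens mitochondrial promoters together with the mitochondrial RNA polymerase. It was 10.78, 10.70 and 10.79 in IκBα SR cells and 10.22, 10.21 and 10.07 in vector cells. Every IκBα SR array lay above every vector array. The means were 10.76 ± 0.05 in IκBα SR cells and 10.16 ± 0.08 in vector cells (SD, n = 3 each). The log2 fold change was 0.59 (standard error 0.05, adjusted p = 0.0023 from limma), or 1.51-fold with a 95% interval from 1.38-fold to 1.66-fold. The call held in 16 of 16 alternatives, with log2 fold changes from 0.54 to 0.62. TFB2M has 1 feature, so taking the mean of a gene's features, or every feature on its own, left its values unchanged. The call could hardly be lost in those feature alternatives.

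TFAM encodes the protein that coats and packages mitochondrial DNA and bends it at the promoters. It was 10.32, 10.21 and 10.41 in IκBα SR cells and 10.56, 10.68 and 10.62 in vector cells, with every IκBα SR array below every vector array. The means were 10.31 ± 0.10 in IκBα SR cells and 10.62 ± 0.06 in vector cells (SD, n = 3 each). The log2 fold change was -0.31 (standard error 0.06, 95% interval -0.47 to -0.14, adjusted p = 0.035 from limma), or 0.809-fold. The direction held in all 16 alternatives but the call in 8, with adjusted p-values from 0.00485 to 0.152. The 8 include the feature alternatives, where the values of TFAM were unchanged (adjusted p = 0.0348 and 0.036 from limma). The call was lost without IκBα SR replicate 1 (adjusted p = 0.112 from limma), IκBα SR replicate 2 (0.0699), vector replicate 1 (0.0669), vector replicate 2 (0.11) or vector replicate 3 (0.11). For both TFB2M and TFAM an exact 2-sided permutation test over the arrays gave p = 0.1, the smallest that 3 arrays against 3 allow.

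TFB1M encodes a paralog of TFB2M whose main known role is to methylate the small ribosomal RNA of mitochondria. It was 6.37, 6.35 and 6.23 in IκBα SR cells and 6.37 in each vector array. The groups met at 6.37, and the log2 fold change was -0.05 (standard error 0.04, 95% interval -0.16 to 0.05, adjusted p = 0.53 from limma). Without IκBα SR replicate 3 it was -0.0108. The paralogs thus had log2 fold changes of 0.59 for TFB2M, which passed the test, and -0.05 for TFB1M, which did not, and the difference between them was not tested.

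**Figure D2:**
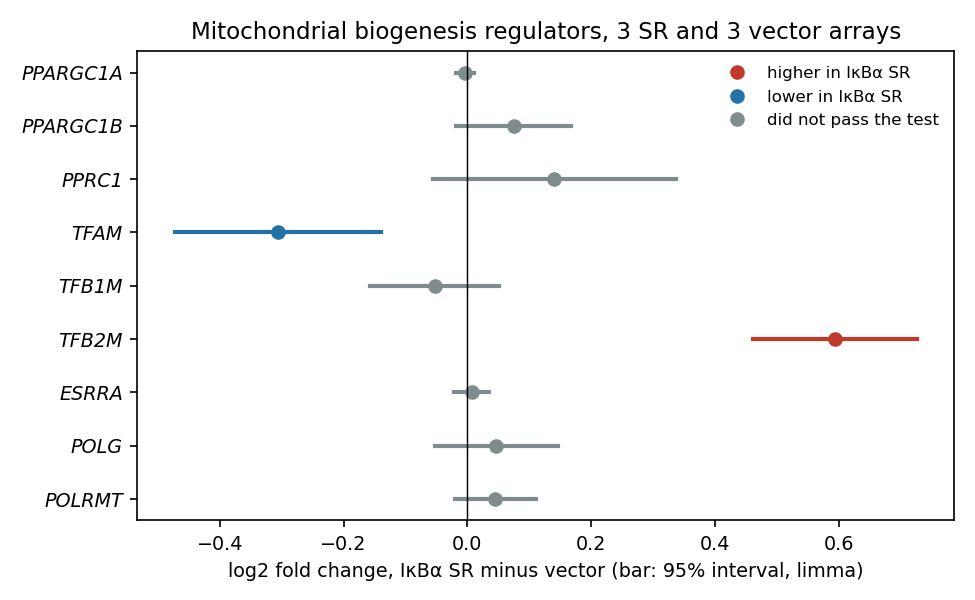
Log2 fold change (IκBα SR minus vector, horizontal axis) of the 9 measured members with the 95% interval from limma. TFB2M lies at 0.59 and TFAM at -0.31, and the intervals of the other members include 0.

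The polymerases of the mitochondrial genome did not pass the test. POLRMT encodes the RNA polymerase that transcribes mitochondrial DNA and primes its replication. It was 6.41, 6.44 and 6.44 in IκBα SR cells and 6.43, 6.39 and 6.34 in vector cells, with overlap between IκBα SR replicate 1 and vector replicate 1. The log2 fold change was 0.05 (standard error 0.02, 95% interval -0.02 to 0.11, adjusted p = 0.37 from limma), and 0.0229 without vector replicate 3. POLG encodes the catalytic subunit of the DNA polymerase that copies mitochondrial DNA. It was 6.05 in each IκBα SR array and 6.04, 5.93 and 6.05 in vector cells, where vector replicate 3 had the IκBα SR value. The log2 fold change was 0.05 (standard error 0.04, 95% interval -0.05 to 0.15, adjusted p = 0.56 from limma), and 0.0065 without vector replicate 2.

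The deposited values of several members repeat exactly. In PPARGC1A 5 of the 6 arrays had 1 value, and in PPARGC1B, TFB1M and POLG 4 arrays had. In PPRC1 and ESRRA 3 arrays shared a value and in POLRMT 2, while TFAM and TFB2M had 6 different values. Over all genes, 6611 (29.5%) had 4 or more arrays at 1 value. With 3 arrays per group such a value necessarily falls in both groups, so the groups cannot stand apart. Of these 6611 genes, limma called 0, the methods' t-test called 0, and 0 had an unadjusted p under 0.05 from limma. That outcome was fixed by the shared values. PPARGC1A, PPARGC1B, TFB1M and POLG are among these genes, so their missing calls do not show that they were unchanged. Among the 7476 genes with 6 different values, 34.6% were called. The intervals of PPARGC1A, PPARGC1B, TFB1M and POLG rest on 1 or 2 arrays that depart from a shared value. Some of the called list genes and markers named below had identical values in a group. CAMK2D, NCOA1, RNASEH1 and FASTKD2 had 1 value on all 3 IκBα SR arrays, and DES on all 3 vector arrays. Their spread in that group was therefore 0, and the choice of names by smallest p favors such genes. What gives rise to the repeated values was not tested.

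The promoter sequences of TFB2M, TFAM and TFB1M are shown because the first and second of these genes moved in opposite directions and the third is the paralog that did not pass the test. The RefSeq table (GRCh38.p14) held a promoter for 9 of the 10 members, from 250 bases before to 50 bases after the start of transcription. Capitals mark matches to 6 motifs, searched on both strands. They were the 10-base NRF1 motif (GCGCA, any base, then GCGC), its shorter core GCATGCGC, CCGGAAG (ETS factors, which include the GABP complex known as NRF2), its core CGGAAG, the ERR half-site AAGGTCA and the κB consensus of NF-κB. Longer and shorter forms overlap, and both cores were added after the sequences had been seen.
TFB2M, chromosome 1, chr1:246566212-246566511, minus strand: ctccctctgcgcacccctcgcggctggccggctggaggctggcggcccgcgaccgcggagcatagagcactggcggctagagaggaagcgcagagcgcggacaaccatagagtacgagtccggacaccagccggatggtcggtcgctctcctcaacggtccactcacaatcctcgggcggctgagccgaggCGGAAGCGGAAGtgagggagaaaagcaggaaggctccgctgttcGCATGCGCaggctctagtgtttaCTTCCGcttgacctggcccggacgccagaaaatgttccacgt
TFAM, chromosome 10, chr10:58385160-58385459, plus strand: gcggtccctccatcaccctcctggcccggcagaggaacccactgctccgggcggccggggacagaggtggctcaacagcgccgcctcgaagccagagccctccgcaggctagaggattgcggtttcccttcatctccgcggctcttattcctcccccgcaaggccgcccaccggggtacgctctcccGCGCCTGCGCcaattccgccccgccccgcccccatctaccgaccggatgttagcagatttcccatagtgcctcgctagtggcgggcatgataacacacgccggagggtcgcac
TFB1M, chromosome 6, chr6:155314435-155314734, minus strand: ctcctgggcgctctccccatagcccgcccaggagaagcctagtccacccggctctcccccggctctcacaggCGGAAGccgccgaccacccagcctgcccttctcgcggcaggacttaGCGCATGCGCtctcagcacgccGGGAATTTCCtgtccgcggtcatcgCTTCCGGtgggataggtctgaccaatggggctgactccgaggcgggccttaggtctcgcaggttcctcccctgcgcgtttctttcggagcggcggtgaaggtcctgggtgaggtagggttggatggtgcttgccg

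The promoter of TFB2M held the NRF1 core at base -15 from the start, 3 ETS cores beginning at -59, -53 and 9, and no match to the longer forms. The promoter of TFAM held GCGCCTGCGC at -63, a match to the longer NRF1 motif on the minus strand. The promoter of TFB1M held the longer NRF1 motif at -132, with NRF1 core matches at -132 and -130 inside it. It held CTTCCGG, the ETS motif on the minus strand, at -85, and ETS cores at -178 and -85. It also held GGGAATTTCC at -110, a match to the κB consensus. The longer NRF1 motif was found in 4 of the members (TFAM, TFB1M, ESRRA and POLRMT) and in 5.78% of all 35116 promoters of this length. The κB consensus was found in 3 members (TFB1M, POLG and POLRMT) and in 11.3% of all promoters. The NRF1 core was in 4 members and 3.05% of all promoters. The ETS motif was in 2 members and 10.3%, and the ETS core in 3 members and 19.5%. The ERR half-site was in none of the members' promoters and in 3.92% of all. These are matches of letters and were not tested as binding sites.

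The genes beside each member on its chromosome were read as well. Of the 20 nearest protein-coding genes around TFB2M at or above the median gene's level, 9 were higher and 0 lower by limma, with a median log2 fold change of 0.21 (quartiles 0.15 and 0.40). Over all 9575 such genes 20.4% were higher, 17.3% were lower and the median was 0.003. TFB2M, at 0.59, lay above the upper quartile of its neighbors. Around POLG, on chromosome 15, 14 of 20 neighbors were higher and 0 lower, with a median of 0.48, while POLG itself had a log2 fold change of 0.05. The neighbors of POLG that were higher include MRPS11 (0.54) and MRPL46 (0.34), which encode mitochondrial ribosomal proteins. TFAM had 4 neighbors higher and 5 lower, with a median of -0.01. The medians around the remaining members lay between -0.07 and 0.02. The part of chromosome position in the TFB2M result was not tested.

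**Figure D3:**
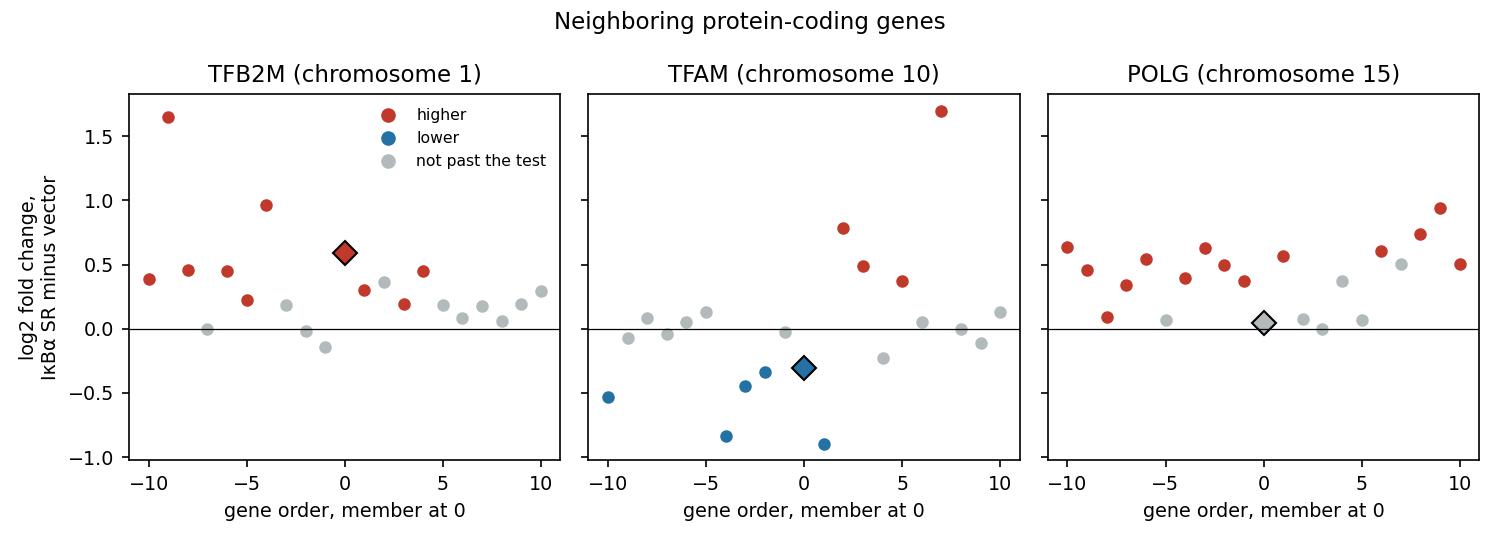
Log2 fold change (IκBα SR minus vector, vertical axis) of TFB2M, TFAM and POLG (diamonds, at 0) and of the 10 nearest measured protein-coding genes on each side, in gene order. Around TFB2M 9 of 20 neighbors were higher and around POLG 14 of 20, while those of TFAM lay on both sides of 0.

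Genes that act with the members were read as lists. Of 33 measured partners and modifiers of the coactivators, 6 were higher and 6 lower by limma, 36.4% called, with a median log2 fold change of -0.01. The called share is near the 34.2% of genes at or above the median level. After a further quantile normalization 5 were higher and 8 lower. GABPA, the DNA-binding subunit of GABP, was 9.95, 10.12 and 10.03 in IκBα SR cells and 9.65, 9.63 and 9.64 in vector cells. Its log2 fold change was 0.39 (standard error 0.05, adjusted p = 0.0058 from limma), among neighbors with a median of 0.21. SIRT1, a deacetylase that activates PGC-1α, was 9.97, 9.96 and 9.97 in IκBα SR cells and 9.70, 9.77 and 9.77 in vector cells (log2 fold change 0.22). NRIP1, which encodes the corepressor RIP140 that counteracts PGC-1α, was also higher (0.55), as was the calcium-dependent kinase gene CAMK2D (1.09). The neighbors of NRIP1 had a median of 0.285, with 7 of 11 higher and 1 lower.

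Lower partners included NCOA1, a nuclear receptor coactivator that binds PGC-1α, at -1.39, and YY1, a DNA-binding factor that PGC-1α coactivates, at -0.32. YY1 was 10.34, 10.32 and 10.40 in IκBα SR cells and 10.72, 10.66 and 10.64 in vector cells. MEF2C, a muscle transcription factor that drives PPARGC1A (-0.54), and the arginine methyltransferase gene PRMT1 (-0.16) were lower too. The 20 neighbors of NCOA1 on chromosome 2 had a median of -0.46, with 16 lower. ERRβ and ERRγ, the relatives of ERRα, had log2 fold changes of 0.00 for ESRRB and 0.01 for ESRRG at levels below the median gene, and neither passed the test. ESRRB had 1 value on every array, and ESRRG read 3.347 on every vector array and on IκBα SR replicate 3. With such shared values no call was possible, so the missing calls do not show that ESRRB and ESRRG were unchanged.

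Of 23 measured genes that maintain mitochondrial DNA, 4 were higher and 4 lower, with a median of 0.00. The called share was 34.8%, against 34.2% of genes at or above the median level. POLG2, the accessory subunit that clamps POLG to DNA, was 8.151, 8.202 and 8.172 in IκBα SR cells and 8.503, 8.419 and 8.381 in vector cells. Its log2 fold change was -0.26 (standard error 0.04, adjusted p = 0.010 from limma), and the call was lost without IκBα SR replicate 3. The 20 neighbors of POLG2 had a median of -0.31, with 9 lower and 3 higher. The other lower genes were RNASEH1, which removes RNA primers (-0.94), MPV17, an inner membrane protein gene mutated in mitochondrial DNA depletion (-0.54), and PRIMPOL, a primase-polymerase gene (-0.41). RNASEH1 and MPV17 lie on chromosome 2 among neighbors with medians of -0.69 and -0.45, and the neighbors of PRIMPOL had a median of -0.24. Higher were EXOG, a mitochondrial nuclease gene (0.58), SLC25A33, a pyrimidine nucleotide carrier gene (0.58), the topoisomerase gene TOP3A (0.34) and TK2, the mitochondrial thymidine kinase gene (0.28). TWNK, the replicative helicase gene, changed by a log2 value of 0.08, which was not called. It read 7.770 on every IκBα SR array and on vector replicate 3, and with that shared value no call was possible. Leaving out IκBα SR replicate 2 gave 1 higher and 4 lower, leaving out IκBα SR replicate 3 gave 2 and 2, and a further quantile normalization gave 4 and 7. The call of PRIMPOL was lost without any one IκBα SR array or vector replicate 1, and that of TOP3A without any one IκBα SR array or vector replicate 3. TK2 was not called without IκBα SR replicate 2, IκBα SR replicate 3 or vector replicate 2, and SLC25A33 without IκBα SR replicate 2 or vector replicate 1.

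Of 23 measured genes of mitochondrial transcription and RNA processing, 3 were higher and 4 lower, with a median of -0.003. The called share was 30.4%, against 34.2% of genes at or above the median level. REXO2, an exonuclease gene that clears short RNAs (0.55), SUPV3L1, the helicase of the mitochondrial RNA degradosome (0.42), and FASTKD2 (0.16) were higher. LRPPRC, whose product stabilizes mitochondrial messenger RNAs, was 11.90, 11.84 and 11.86 in IκBα SR cells and 12.01, 12.01 and 12.00 in vector cells (log2 fold change -0.14). GRSF1, an RNA granule protein gene (-0.53), MTERF1 (-0.43) and MTERF3 (-0.40), of the family of transcription termination factors, were lower. TEFM, the elongation factor gene that acts on POLRMT, stood at -0.0024 and was not called. Without IκBα SR replicate 2 the list had 3 higher and 1 lower. The lower count was also 1 without IκBα SR replicate 1 or vector replicate 1, and 2 without vector replicate 2. The calls of GRSF1, MTERF3 and MTERF1 held in 11, 10 and 8 of 16 alternatives. MTERF1 was not called without any one of the 6 arrays, MTERF3 without any one IκBα SR array or vector replicate 1, and GRSF1 without IκBα SR replicate 1, IκBα SR replicate 2, vector replicate 1 or vector replicate 2.

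**Figure D4:**
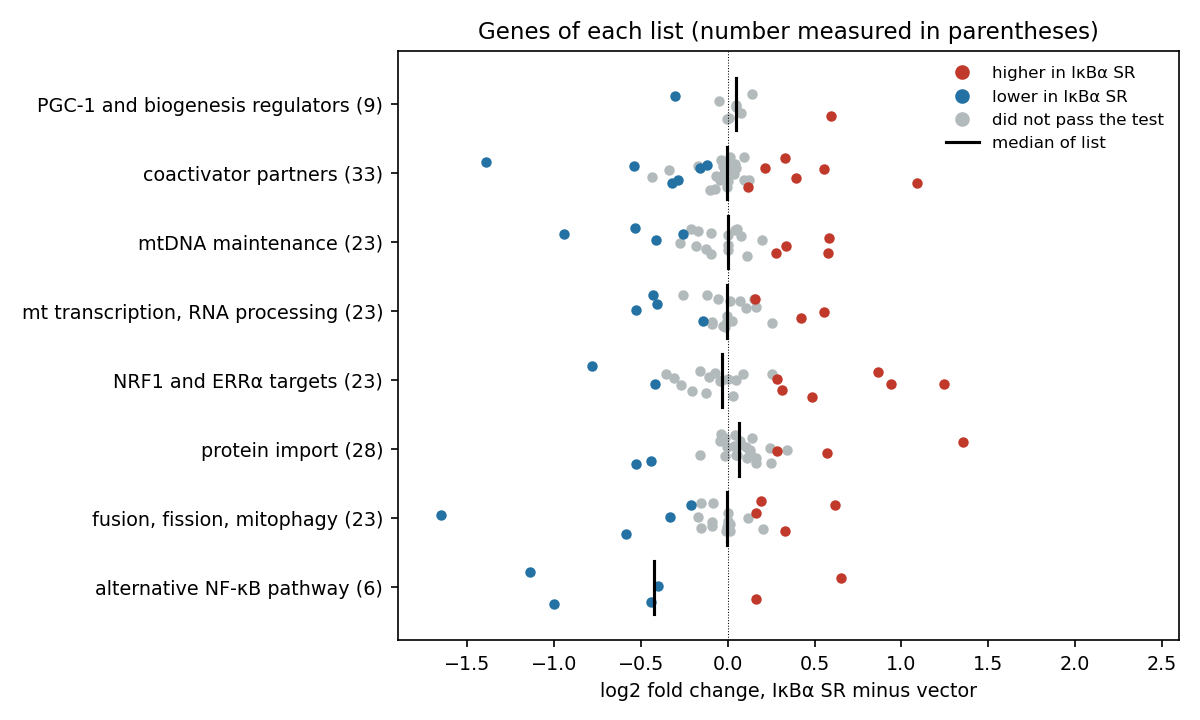
Log2 fold change (IκBα SR minus vector, horizontal axis) of each measured gene in the biogenesis regulators and the lists read with them; colors give the call by limma and black bars the median of each list. Except for the alternative NF-κB pathway, medians lie between -0.03 and 0.07 and most lists hold higher and lower genes.

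Textbook targets of NRF1 and ERRα stand downstream of the members. Of 23 measured, 6 were higher and 2 lower, with a median of -0.03. The called share was 34.8%, against 34.2% of genes at or above the median level. The lower count was not stable: 6 were higher and 5 lower after a further quantile normalization and with array weights, 7 and 6 among genes at or above the median level, 7 and 5 without genes with identical values in a group, and 5 and 5 without vector replicate 3. CYCS, the gene for cytochrome c and a classical NRF1 target, was 14.94, 14.95 and 15.06 in IκBα SR cells and 14.00, 14.17 and 13.96 in vector cells (log2 fold change 0.94, standard error 0.07, adjusted p = 0.0015 from limma). IDH3A, a subunit of isocitrate dehydrogenase (0.86), COX5A, a subunit of cytochrome c oxidase (0.48), and UCP3, an uncoupling protein gene of muscle (1.24), were also higher. Each of these lies among neighbors that were higher, with medians of 0.45 for CYCS, 0.35 for IDH3A, 0.27 for COX5A and 1.79 for UCP3. Lower were TOMM34, a cytosolic import cofactor gene (-0.78), and COX4I1, another cytochrome c oxidase subunit gene (-0.42), whose neighbors had medians of -0.32 and -0.22. The part of chromosome position in these calls was not tested.

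Of 28 measured genes of protein import into mitochondria, 3 were higher and 2 lower, 17.9% called against 34.2% at or above the median level, where all 28 lie. TIMM21 was the most raised, at 1.35, among neighbors on chromosome 18 with a median of 0.80. TIMM9, a small chaperone of the space between the membranes (0.57), and the import receptor gene TOMM20 (0.28) were higher, and TOMM40, the pore of the outer membrane (-0.53), and GRPEL1 (-0.44) were lower. The list had 3 higher and 0 lower without IκBα SR replicate 3, and 2 higher and 1 lower without vector replicate 1. Without IκBα SR replicate 1, IκBα SR replicate 2 or vector replicate 2 the lower count was also 1. TOMM40 lies among neighbors with a median of -0.36. TOMM40 and TOMM20 each held in 10 of 16 alternatives. TOMM40 was not called without any one IκBα SR array, vector replicate 1 or vector replicate 2, TOMM20 not without IκBα SR replicate 3 or any one vector array, and GRPEL1 not without IκBα SR replicate 3.

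Of 23 measured genes of mitochondrial fusion, fission and mitophagy, 4 were higher and 4 lower, with a median of -0.002. The called share was 34.8%, against 34.2% of genes at or above the median level. The fusion genes OPA1 (0.62) and MFN2 (0.16) were higher. OPA1 was 10.64, 10.60 and 10.63 in IκBα SR cells and 10.05, 10.07 and 9.89 in vector cells. PINK1, the kinase that marks damaged mitochondria (0.19), and the mitophagy receptor gene BNIP3L (0.33) were higher, while BNIP3, a related receptor gene (-0.59), and OPTN, a mitophagy adaptor gene (-1.65), were lower. MTFR1 (-0.21) and the inner membrane protease gene YME1L1 (-0.33) were lower as well. YME1L1 was not called without any one IκBα SR array, vector replicate 1 or vector replicate 2. The neighbors of BNIP3L had a median of 0.41, with 10 of 20 higher, and those of MTFR1 a median of -0.33, with 12 of 20 lower, each past the gene's own change. The neighbors of OPA1 had a median of 0.19 and those of OPTN -0.14.

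The alternative NF-κB pathway was read because it is known to act on PGC-1β in muscle cells. All 6 measured genes passed the test, 2 higher and 4 lower. All lie at or above the median level, where 34.2% of genes were called. TRAF2 and BIRC3, also in the list, were not among the measured genes. NFKB2, the gene for p100, the precursor of p52, was 6.31, 6.40 and 6.49 in IκBα SR cells and 7.59, 7.55 and 7.48 in vector cells (log2 fold change -1.14). RELB, the partner of p52, had a log2 fold change of -0.40, which was not called without IκBα SR replicate 3. Of its 20 neighbors 11 were lower and 0 higher, with a median of -0.34. TRAF3 (-0.9985) and BIRC2 (-0.44, among neighbors with a median of 0.56), whose products hold down the kinase NIK, were lower, and MAP3K14, which encodes NIK, was 9.104, 9.160 and 9.160 in IκBα SR cells and 8.326, 8.503 and 8.639 in vector cells (0.65). CHUK, the gene for IKKα, was higher by 0.16. These are RNA levels and do not measure the processing of p100 protein to p52. By western blot, the paper reported a modest increase of that processing in RH30-IκBα SR cells. Of 15 listed genes encoded in mitochondrial DNA itself, 0 were found by name among the measured genes.

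The identity of the cells and libraries was checked. NFKBIA, the gene for IκBα, was 13.55, 13.74 and 13.57 in IκBα SR cells and 11.61, 11.66 and 11.58 in vector cells. The skeletal muscle lineage genes MYOD1, MYOG and DES had means above 11 in both groups, and 15 of 16 measured rhabdomyosarcoma markers lay at or above the median gene, while of the 16 markers 7 were called higher and 3 were called lower. Of the markers 62.5% were called, against 34.2% of genes at or above the median level. Without IκBα SR replicate 2, 4 markers were higher and 2 lower. The muscle markers therefore moved too, with DES at 1.001, MYOD1 at 0.62 and MYOG at -1.17, and their part in the results above was not tested. Of 29 measured markers of immune, epithelial and endothelial cells, 4 lay at or above the median gene, 4 were called lower and 0 higher by limma. They were the immune markers CD68 (-0.99) and ITGAM (-0.24) and the endothelial markers TIE1 (-1.21) and PECAM1 (-0.26). By list, 2 of 9 immune, 0 of 10 epithelial and 2 of 10 endothelial markers were called. Of all genes 18.3% were called, 9.76% higher and 8.58% lower. CD68 averaged 6.55 in IκBα SR cells and 7.54 in vector cells, and TIE1 averaged 5.73 in IκBα SR cells and 6.94 in vector cells. ITGAM (4.06 in IκBα SR cells and 4.30 in vector cells) and PECAM1 (3.86 and 4.12) lay below the median gene. PTPRC, CDH5, VWF, KDR and ESAM, also below it, each had 1 value on all 6 arrays. Of the endothelial calls 1 was left without IκBα SR replicate 1, IκBα SR replicate 3 or vector replicate 2. The part of these markers in the results above was not tested. The median levels of the immune markers were 3.88 in IκBα SR cells and 4.12 in vector cells, those of the epithelial markers 4.11 and 4.10, and those of the endothelial markers 4.01 and 4.05. In bulk RNA, fewer cells of a kind and less RNA per cell cannot be told apart.

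**Figure D5:**
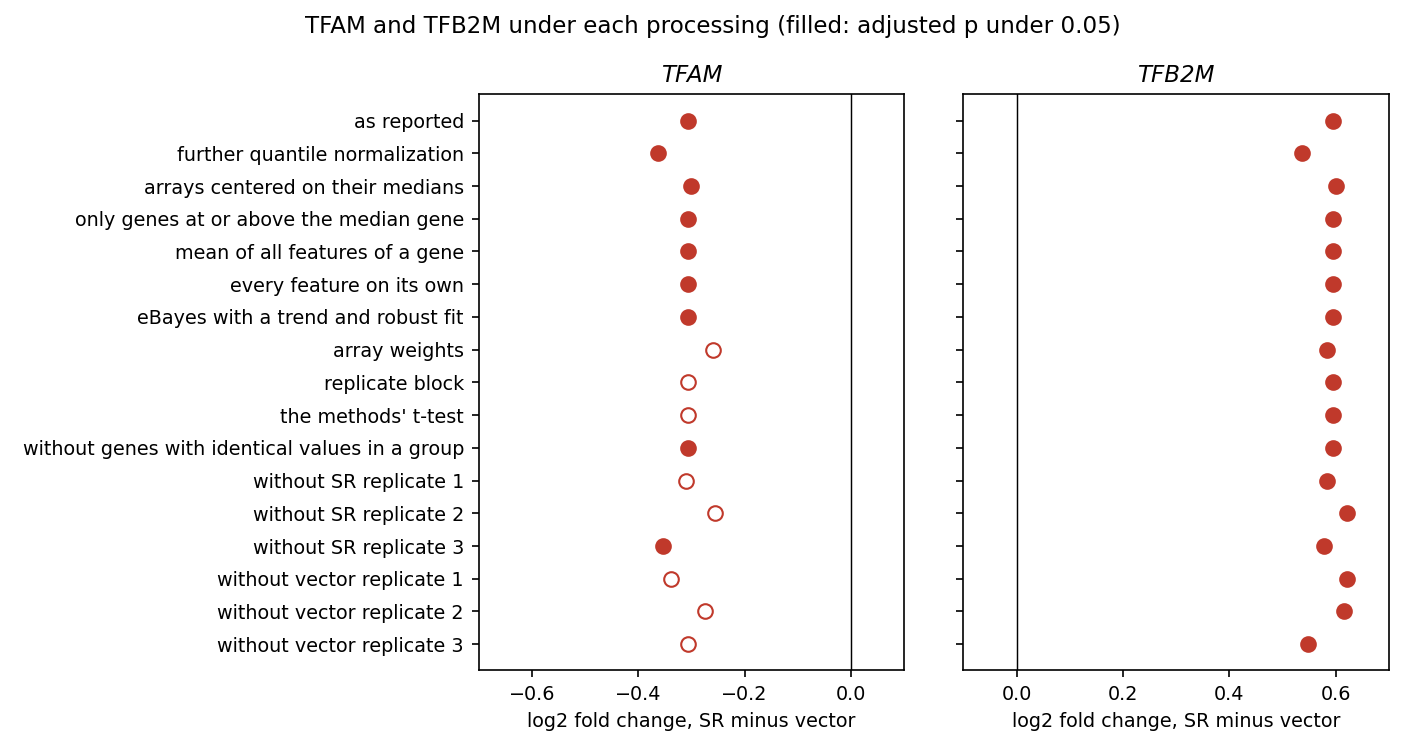
Log2 fold change (IκBα SR minus vector, horizontal axes) of TFAM (left) and TFB2M (right) as reported and under 16 alternatives; filled points have an adjusted p under 0.05. TFB2M stayed called in all 16 and TFAM in 8, which include the feature alternatives that left the values of both unchanged.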

How the data were processed

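RNA of RH30-IκBα SR cells (3 arrays) and RH30 vector cells (3 arrays) was measured with the Affymetrix Human Transcriptome Array 2.0. The deposited values are log2 RMA levels, and the authors' processing notes name the Affymetrix Expression Console, with versions and genome build not given in the sources used here. Gene names came from the platform annotation, updated with RefSeq (GRCh38.p14). Of 70523 features, 23781 had 1 symbol, 1543 several and 45199 none listed. Where a symbol had several features the brightest stood for it, giving 22411 genes. The members and lists were chosen with earlier results of these data known. The test was limma (version 3.58.1, lmFit with eBayes, under R version 4.3.3) on IκBα SR minus vector, with p-values adjusted over all genes. The procedure was tested on simulated data. The named genes are the members, up to 4 genes of each list per direction by smallest p, the alternative NF-κB genes and NFKBIA. Genes named with no call, markers and neighbors lie outside this rule. No array detection values were used, and 3 arrays per group limit the precision.

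Alternatives were a further quantile normalization, median centering, leaving out dim genes, the mean of a gene's features, every feature on its own, the methods' t-test, array weights, eBayes with a trend and robustness, a block for replicate number, leaving out genes with identical values in a group, and leaving out each array. The counts of arrays at 1 value, the neighbors of list genes and the motifs were added after the data were seen.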

Additional observations from a re-analysis of the deposited data

How the results depend on the processing

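TFB2M was called under all 16 alternatives run, and TFAM kept its direction in all 16. The mean of a gene's features and every feature on its own left the values of both unchanged, since each has 1 feature. The count of members lower was 0 in place of 1 with array weights, with a replicate block and with the methods' t-test, where TFAM had adjusted p-values of 0.059, 0.152 and 0.0591. Without 1 array each, members higher numbered 1 to 2 and members lower 0 to 1, all genes higher 1629 to 2010 and all genes lower 1360 to 1781. With the replicate block 1327 genes were higher and 1123 lower, and TFB2M had an adjusted p of 0.0396. The block ended the calls of 16 of the 48 named list genes, which were BNIP3, CHUK, COX4I1, GABPA, GRSF1, MEF2C, MTERF1, MTERF3, MTFR1, POLG2, PRIMPOL, SLC25A33, TOMM20, TOMM40, TOP3A and YME1L1, and the methods' t-test those of MTERF1, MTERF3 and TOMM20. By list the block gave 3 higher and 3 lower for the coactivator partners, 2 and 2 for mitochondrial DNA maintenance, 3 and 1 for transcription, 4 and 1 for fusion, fission and mitophagy, 2 and 1 for import, and 4 and 2 for the rhabdomyosarcoma markers. Deviations from the group means correlated at 0.118, -0.217 and -0.195 between arrays of the same number, which were not treated as pairs. Across numbers the largest correlation was 0.306, between IκBα SR replicate 2 and vector replicate 3. Whether arrays shared a batch under other numbering was not tested. Members that did not pass the test changed sign: PPARGC1A was 0.0030 after a further quantile normalization and 0.0024 after median centering, and ESRRA was -0.0021 without IκBα SR replicate 2, within a range of -0.0021 to 0.0123 without 1 array each. PPARGC1A was not tested among genes at or above the median level, nor were PPARGC1A, PPARGC1B, TFB1M and POLG without genes with identical values in a group. The cause of these changes was not tested.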
